A study of Mus musculus with 4 samples.

Results

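TRBV1 is the mouse TCRβ variable segment known to flow cytometry as Vβ2. Clones were counted as TRBV1 when it was the first variable segment named for them in the deposited TCRβ clone tables, with the allele removed, which gave 13327 of 382531 TCRβ clones over 4 libraries. The libraries were made from splenic CD4 T cells of young mice in about the fourth week of life, 2 from wild type (WT) C57BL/6 mice and 2 from Tet2/3 DKO mice. The DKO mice were germline Tet2 -/- and carried Tet3 flx/flx with CD4Cre, so that TET3 was lost from the double positive stage of thymic development, after the TCRβ chain is normally assembled. B cells were depleted and live CD4+ CD25- TCRβ+ cells that did not bind the αGalCer-CD1d tetramer were sorted, so regulatory T cells that express CD25 and iNKT cells were left out in both genotypes. The study compared the TCR repertoire of T cells with and without TET2 and TET3, enzymes that oxidize methylated cytosine. The tables hold TCR sequences only, so neither the loss of Tet2 and Tet3 nor the CD4 identity of the cells could be checked in them, and both rest on the labels. In such bulk RNA, more cells with a receptor and more receptor RNA per cell cannot be told apart. By flow cytometry of splenic CD4 T cells, the study reported a significantly lower percentage of cells bearing the TRBV1 protein in DKO mice. It allows that such differences could be stochastic variation between replicates. The TRBV1 shares of RNA given below were higher in DKO, which is the opposite direction, but not significantly so (edgeR adjusted p = 0.369). The flow cytometry covered more mice, and CD25 is not among its listed stains, whereas the libraries hold CD25- cells of 2 mice per genotype. A percentage of cells and a share of reads are also different measures. The cause of the opposite directions was not tested.

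A TCRβ chain is assembled in the thymus by joining a variable (V), a diversity (D) and a joining (J) segment, with bases trimmed from the ends and others added between them. The V segment encodes the complementarity determining regions CDR1 and CDR2, which mostly contact the MHC molecule. CDR3 spans the junction, contacts the peptide and differs from clone to clone. Trbv1 lies in the Tcrb locus at chr6:40891296-40891885 (GRCm38.p6, the build that mm10 stands for, from RefSeq), and 0 of the 35 annotated Trbv genes lie nearer the 5′ end of the locus. The gap to Trbv2 is 156 kb and the gap to Trbd1 is 641 kb.

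The sequence of the TRBV1 variable region, as read in the clones, is shown because most members share it unchanged. It runs from the start of framework 1 to the end of framework 3, has 270 bases and was found without any change in 11292 of the 13327 clones (84.7%). CDR1 and CDR2 are in capitals.
TRBV1: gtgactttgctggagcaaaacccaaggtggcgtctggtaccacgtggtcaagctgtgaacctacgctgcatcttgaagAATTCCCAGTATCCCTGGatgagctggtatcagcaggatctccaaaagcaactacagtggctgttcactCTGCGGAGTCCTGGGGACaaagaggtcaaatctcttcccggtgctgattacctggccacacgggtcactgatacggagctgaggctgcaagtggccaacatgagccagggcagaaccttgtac
The next 17 bases belong to CDR3 and encode its start, cysteine, threonine, cysteine, serine and alanine, followed by an incomplete codon.
TRBV1 end: tgcacctgcagtgcaga
This end was intact, with no base trimmed and no base added to it as its own palindrome, in 1661 clones, of which 1394 read exactly as shown.

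TRBV1 made up 3.10% of the TCRβ reads of WT replicate 1 (11329 of 365421 reads; 95% Wilson interval 3.04 to 3.16%). It made up 3.17% in WT replicate 2 (14387 of 454098; 3.12 to 3.22%). In Tet2/3 DKO replicate 1 the share was 3.78% (15466 of 409444; 3.72 to 3.84%), and in Tet2/3 DKO replicate 2 it was 4.15% (23658 of 569678; 4.10 to 4.20%). Both DKO libraries lay above both WT libraries. The reads carry no molecular identifiers, so these intervals cover counting error only. The mean was 3.97% ± 0.266 (SD, n = 2) in Tet2/3 DKO and 3.13% ± 0.0481 (SD, n = 2) in WT, a log2 ratio of 0.34. With 2 libraries a group, the exact two-sided permutation test over the genotype labels cannot give a p below 0.333, which was its value here (0.467 after Benjamini-Hochberg adjustment over 7 such tests).

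Counted by clones, each clone once, TRBV1 made up 3.32% of WT replicate 1 (2693 of 81127 clones) and 3.27% of WT replicate 2 (3287 of 100455). The DKO libraries held 3.60% (3491 of 96932) and 3.71% (3856 of 104017). The groups again did not overlap, but the distance was smaller than by reads. The DKO mean was 26.5% above the WT mean by reads and 10.9% above it by clones (log2 ratio 0.15; exact permutation p = 0.333, the smallest possible). Several deposited clones can have the same V, J and CDR3 bases. Merging such clones left 2484 and 3026 TRBV1 clones in WT and 3183 and 3435 in DKO, and the log2 ratio was then 0.14. TRBV1 was among the 3 of 24 TRBV segments (12.5%) that lay higher in both DKO libraries than in both WT libraries by reads, and 3 (12.5%) did by clones. Another 4 segments lay lower in both DKO libraries by reads and 5 by clones.

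**Figure D1:**
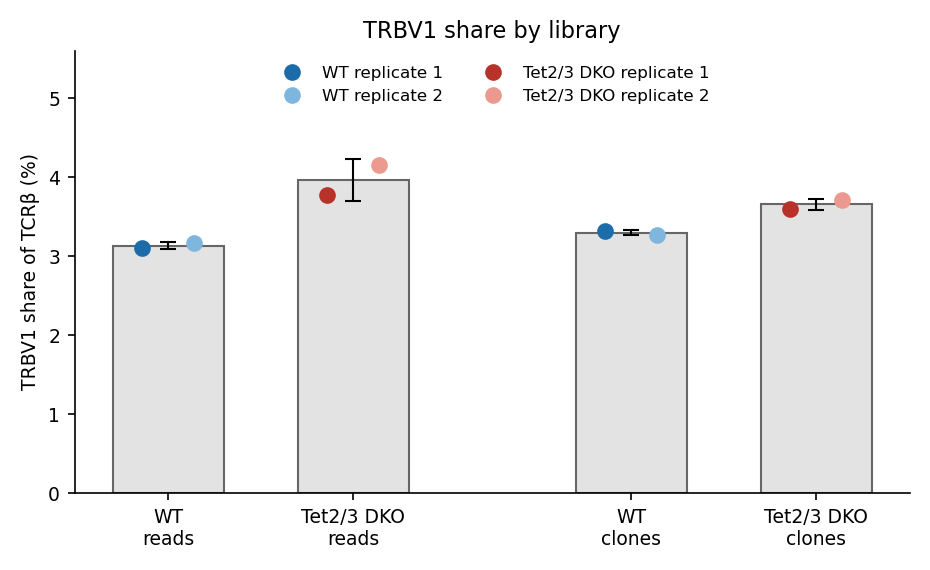
TRBV1 share of all TCRβ reads (left) and of all TCRβ clones (right), in percent, with a point per library, bars at the mean of 2 libraries and lines of 1 SD. The DKO points lie at 3.78% and 4.15% of reads and at 3.60% and 3.71% of clones, above all 4 WT points, and the distance between groups is smaller by clones.

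In edgeR's quasi-likelihood fit over all 24 TRBV segments, the log2 fold change of TRBV1, Tet2/3 DKO against WT, was 0.34 with an SE of 0.15, and its adjusted p was 0.369 (0.0462 before adjustment). The fit called 0 segments (0.0%) at an adjusted p under 0.05, while 3 had an unadjusted p under 0.05, TRBV1 among them. DESeq2 called 1 segment, which was not TRBV1 (TRBV1 adjusted p = 0.15). Part of the difference was carried by the largest clones, and most of it remained without them. Without the most abundant TRBV1 clone of each library, an alternative added after the data were seen, the shares were 3.05%, 3.14%, 3.52% and 3.69% in the order above, still with no overlap, and the log2 fold change was 0.22 (edgeR adjusted p = 0.556). Without the 10 most abundant TCRβ clones of each library it was 0.23 (adjusted p = 0.716). Leaving out Tet2/3 DKO replicate 1 brought the adjusted p of TRBV1 to 0.0475, with a log2 fold change of 0.41, and 8 of 24 segments were then called. Without WT replicate 1, WT replicate 2 or Tet2/3 DKO replicate 2 it was 0.976, 0.72 and 0.786.

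TRBV1 ranked 10th by reads among the 24 segments in both WT libraries and in Tet2/3 DKO replicate 1, and 11th in Tet2/3 DKO replicate 2. By centred log2 read shares over the 4 libraries, the nearest of 16 other segments of at least 1% in every library were TRBV19, TRBV26 and TRBV3, at distances of 0.20, 0.31 and 0.35. A segment with the same share in every library would lie at 0.35, so only TRBV19 stood clearly nearer than that. TRBV19 stood at 1.20% and 1.06% of reads in WT and at 1.21% and 1.49% in DKO, while TRBV26 ranged from 4.37 to 4.78% and TRBV3 from 4.998 to 5.27%, both with overlapping genotypes. These distances rest on 4 libraries and are given as a description.

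All 12 TRBJ segments found in the libraries were joined to TRBV1. TRBJ2-7, the largest partner on the mean of the 4 libraries, took 21.4% and 22.7% of the TRBV1 reads in WT and 20.5% and 18.3% in DKO, where TRBJ2-2 exceeded it in replicate 2. TRBJ2-4 took 11.7% and 14.6% in WT and 11.8% and 10.9% in DKO. TRBJ2-5 followed with 14.6% and 13.2% in WT and 11.1% and 9.52% in DKO. The 2 smallest partners on that mean, though not in every library, were TRBJ1-6, at 1.94 to 3.30% of TRBV1 reads over the libraries, and TRBJ1-5, at 1.96 to 3.63%. The TRBJ2 cluster together held 71.4% and 75.0% of TRBV1 reads in WT and 72.1% and 72.0% in DKO, a difference of -1.17 percentage points that is within the spread of the WT libraries (SD 2.51, n = 2; exact permutation p = 1.0). Leaving out WT replicate 2 turned it to 0.61 points. Without the most abundant TRBV1 clone of each library it was -4.50 points (exact permutation p = 0.333, the smallest possible).

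TRBJ2-2, TRBJ2-3 and TRBJ1-1, named here after their values were seen, had high shares of reads in single DKO libraries. TRBJ2-2 held 19.8% of the TRBV1 reads in Tet2/3 DKO replicate 2 and 6.39 to 7.60% in the other libraries, and a single clone made up 58.4% of the reads of that pair. Counted by clones, TRBJ2-2 held 6.61% there and 6.21 to 7.80% elsewhere. TRBJ2-3 held 13.5% of the TRBV1 reads in Tet2/3 DKO replicate 1 and 4.72 to 7.99% in the others, with 51.6% of the pair in its largest clone. TRBJ1-1 held 13.3% in Tet2/3 DKO replicate 2, where 23.9% of the pair was its largest clone, and 9.80%, 8.57% and 7.62% in Tet2/3 DKO replicate 1, WT replicate 1 and WT replicate 2. By clones TRBJ1-1 held 8.80% and 8.73% in WT and 10.9% and 9.83% in DKO.

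In the edgeR fit over 285 V-J pairs, 0 of the 12 TRBV1 pairs and 0 of all pairs (0.0%) had an adjusted p under 0.05. DESeq2 also called 0 at that threshold. At an unadjusted p under 0.05 edgeR had 29 pairs and DESeq2 had 24, in each case 2 of them with TRBV1. In edgeR the 2 were TRBJ2-2 (log2 fold change 1.27, SE 0.37, edgeR adjusted p = 0.154) and TRBJ1-1 (0.86, SE 0.26, adjusted p = 0.154). Without the most abundant TRBV1 clone of each library, the TRBV1-TRBJ2-2 value was 0.41 (edgeR adjusted p = 0.671) and the TRBV1-TRBJ1-1 value 0.87 (adjusted p = 0.0904). Leaving out Tet2/3 DKO replicate 1 called both pairs (TRBJ2-2 at 1.90, TRBJ1-1 at 1.12), among 50 of 284 V-J pairs called. Leaving out Tet2/3 DKO replicate 2 gave log2 fold changes of 0.13 for TRBJ2-2 and 0.54 for TRBJ1-1. As shares of all TCRβ reads, 6 of the 12 TRBV1 pairs were higher in both DKO libraries than in both WT libraries, beside 18.2% of all 285 pairs (52), and 0 were lower, beside 52 of all pairs. As shares of clones 4 of 12 were higher, beside 20.4% of all pairs (58), and 0 were lower, beside 59.

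Against the other V segments of the same library, counting each in-frame clone once, TRBV1 had a lower share of TRBJ2-3 (a difference of -1.90 percentage points on the mean of 4 libraries) and of TRBJ1-2 (-1.70). Its share was higher for TRBJ1-1 (1.57 points), TRBJ2-4 (1.26), TRBJ2-2 (1.10) and TRBJ1-5 (0.85). TRBJ2-5 and TRBJ1-4 lay on the lower side (-1.13 and -0.24). These 8 differences had the same sign in 4 of 4 libraries, which gives the smallest p the exact two-sided sign-flip test allows (0.125; 0.188 after adjustment over the 12 segments). The TRBJ2 cluster as a whole did not separate TRBV1 from the others, with a mean difference of -0.62 points and values from -2.02 to 0.88 (exact sign-flip p = 0.5). The J usage of TRBV1 was nearest to that of TRBV16 and TRBV13-1 among 21 other segments, with a total variation distance (the share of clones that would have to change partner) of 0.0511 and 0.0614, and farthest from TRBV12-2 at 0.144. For TRBV1 itself the distance between pairs of single libraries was 0.0340 to 0.0575. The 2 kinds of distance are not on one footing, since the segments were compared by means of 4 libraries.

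**Figure D2:**
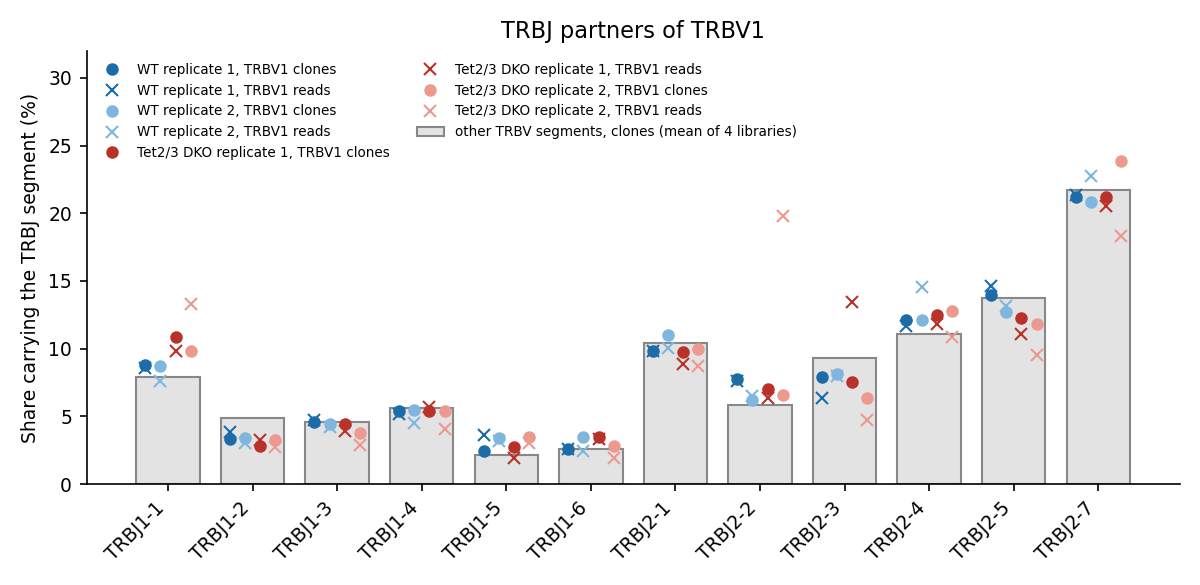
Share of TRBV1 clones (dots) and of TRBV1 reads (crosses) joined to each TRBJ segment in the 4 libraries, in percent, over bars for the clones of all other TRBV segments (mean of 4 libraries). The crosses for TRBJ2-2 at 19.8% and TRBJ1-1 at 13.3% in Tet2/3 DKO replicate 2 and for TRBJ2-3 at 13.5% in Tet2/3 DKO replicate 1 lie above the dots of the same libraries.

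D segments are short and trimmed, and many could not be named. With TRBJ1 partners, TRBD1 was named in 56.2 to 60.8% of TRBV1 clones, and TRBD2 in 3.36 to 5.07%. TRBD2 lies beyond the TRBJ1 cluster and cannot be joined to it by the usual deletion, so these calls are likely errors. They were 5.24 to 8.20% of the TRBJ1 clones with a D call. With TRBJ2 partners, which either D segment can reach, TRBD1 was named in 34.9 to 38.0% and TRBD2 in 33.3 to 37.2% of clones. The WT values for TRBD2 with TRBJ2 were 37.2% and 34.7%, and the DKO values were 34.3% and 33.3%.

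TRBV1 clones with a CDR3 were in frame and free of stop codons in 98.2% and 98.3% of cases in WT and 98.6% and 98.2% in DKO. By reads the shares were 98.7% and 98.6% in WT and 99.2% and 98.6% in DKO, so the groups overlapped (difference 0.23 points, exact permutation p = 1.0). The other V segments together were in frame in 95.9 to 96.3% of clones, and TRBV1 exceeded them by 2.31, 1.92, 2.47 and 2.05 points in the 4 libraries (exact sign-flip p = 0.125, the smallest possible, 0.167 adjusted over 4 tests). Among the 22 segments with at least 100 clones in a library, TRBV1 ranked between 1st and 3rd for this share. In absolute terms 42, 51, 45 and 66 TRBV1 clones were frameshifted and 5, 6, 5 and 5 held a stop codon. An in-frame clone had 4.23 and 4.40 reads on average in WT and 4.46 and 6.16 in DKO, and a clone out of frame or with a stop had 3.09 and 3.40 in WT and 2.42 and 4.65 in DKO. Clones of the other segments, in any frame, had 4.51 and 4.53 reads in WT and 4.22 and 5.45 in DKO, so they too had most in Tet2/3 DKO replicate 2.

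The third residue of a TRBV1 CDR3 was a cysteine in 99.6% and 99.5% of in-frame clones in WT and in 99.5% and 99.3% in DKO, as its germline end encodes. In the other V segments a cysteine stood there in 0.065 to 0.094% of clones. TRBV1 made up 93.8 to 94.5% of all in-frame clones with a cysteine beyond the one that opens the CDR3. Beyond its germline-encoded start, after residue 5, a cysteine was found in 0 to 0.106% of TRBV1 clones and in 0.105 to 0.121% of the others.

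The most common start of the CDR3 was CTCSA, the full germline start, in 73.2% of in-frame clones in each WT library and in 73.7% and 73.0% in DKO. CTCSG followed with 8.77 to 9.81%, and CTCSP, CTCSV, CTCSD and CTCSE each had less than CTCSG in every library. Weighted by reads, CTCSA took 73.5% and 75.1% in WT and 77.7% and 76.5% in DKO, a difference of 2.82 points between groups that did not overlap (exact permutation p = 0.333, the smallest possible). The difference was 0.19 points by clones and -0.06 points by reads without the most abundant TRBV1 clone of each library. The sixth residue went with whether the alignment called the V end whole. Added bases that match the germline count as germline there, so much of this contrast is set by the alignment. With no V base trimmed, 97.0 to 98.1% of clones with a CTCSA start continued with an acidic residue, aspartate in 72.3 to 74.1% and glutamate in 23.0 to 25.8%. With at least 1 base trimmed, 0.27 to 0.68% did, and glycine was then the leading sixth residue at 36.4 to 38.0%. The incomplete codon at the germline end can be completed only to the codons of these 2 residues.

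The TRBV1 end carried no trimming, with or without added palindromic bases, in 29.3% and 27.6% of in-frame clones in WT and in 27.7% and 28.0% in DKO. It ended exactly at the last germline base in 12.5% over the 4 libraries together. Among ends that were trimmed, losses of 3 bases were the most frequent. They were found in 20.5% and 21.0% of all in-frame TRBV1 clones in WT and in 21.3% and 22.3% in DKO. In the other V segments they were found in 11.9 to 12.5% of in-frame clones. Losses of 2 bases were rarer, at 8.28% over the 4 libraries together, than losses of 1 (17.6%) or 4 (14.2%). Frameshifted clones, which cannot make the protein, had the same order, with 20.1% at 3 bases, 5.88% at 2 and 17.6% at 1, from only 204 clones. On average 2.11 to 2.20 V bases were lost in in-frame TRBV1 clones and 8.16 to 8.21 bases lay between V and J. The other V segments lost 2.29 to 2.36 and had 8.65 to 8.87 between. The alignment counts palindromic bases with their segment. On that count, no base lay between V and J in 3.11% and 2.92% of in-frame TRBV1 clones in WT and 3.29% and 3.22% in DKO. In the others it was 2.18 to 2.41%.

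**Figure D3:**
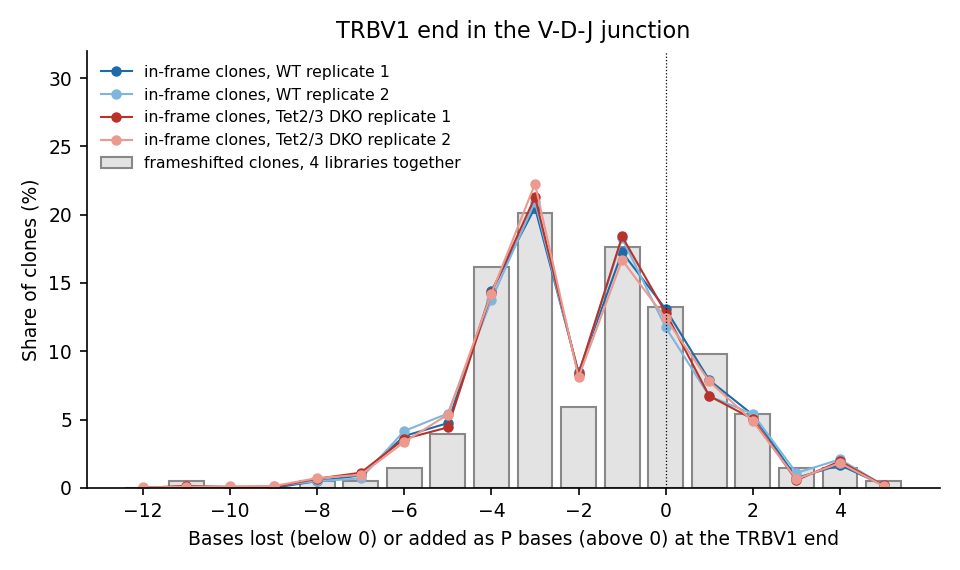
Bases lost from the TRBV1 end (below 0) or kept with added palindromic bases (above 0), as shares of in-frame clones in each library (lines, in percent) and of frameshifted clones of the 4 libraries together (bars, 204 clones). All 4 lines have peaks at 3 lost bases and at 1 lost base with a dip at 2, and so do the bars.

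The CDR3 of in-frame TRBV1 clones was 13.9 residues long on average in both WT libraries (SD over clones 1.37 and 1.36) and 13.9 and 13.8 in DKO (1.40 and 1.41), and 14 residues was the most frequent length in all 4. Lengths of 12 to 16 residues covered 91.7 to 94.3% of the clones. By reads the means were 13.8 and 13.9 in WT and 13.7 and 13.6 in DKO, a difference of -0.18 residues (exact permutation p = 0.333, the smallest possible, with no overlap). Counted by clones the difference was -0.07, and by reads without the most abundant TRBV1 clone of each library it was also -0.07. TRBV1 clones were longer than those of the other V segments by 0.17, 0.22, 0.13 and 0.18 residues in the 4 libraries (mean 0.18 ± 0.033, SD, n = 4; exact sign-flip p = 0.125, the smallest possible, 0.167 adjusted over 4 tests). TRBV1 ranked 3rd to 5th from the longest of 22 segments, between TRBV5 at 14.3 to 14.4 and TRBV30 at 12.7 to 12.8.

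**Figure D4:**
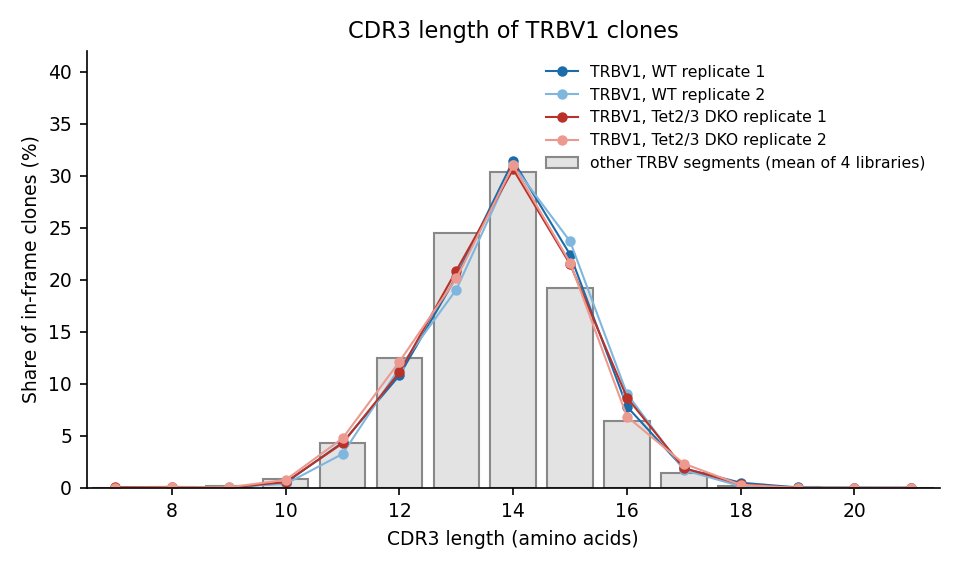
CDR3 length in amino acids of in-frame TRBV1 clones in each library (lines) and of the other TRBV segments (bars, mean of 4 libraries), as shares of clones in percent. The lines peak at 14 residues like the bars and lie below them at 12 and 13 and above them at 15.

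A few TRBV1 clones were large in the DKO libraries. The 10 most abundant TRBV1 clones held 7.81% and 6.53% of TRBV1 reads in WT and 10.7% and 24.3% in DKO (log2 ratio 1.29; exact permutation p = 0.333, the smallest possible). The ratio rested on Tet2/3 DKO replicate 2, without which it was 0.58, and on the largest clones. Without the most abundant TRBV1 clone of each library it was 0.61, with overlapping groups (exact permutation p = 1.0). The DKO libraries differed between themselves, since in replicate 1 a single clone held 6.94% of the reads and the next held 0.737%. A run of the largest clones made up 50% of the TRBV1 reads after 543 and 650 clones in WT and after 674 and 389 in DKO. Clones with a single read were 24.7% and 24.6% of TRBV1 clones in WT and 23.9% and 23.7% in DKO, against 26.2 to 27.1% of the clones of other segments. Of the 100 most abundant TCRβ clones of a library, 3 and 4 were TRBV1 in WT and 4 and 5 in DKO. These counts were near its shares of all clones, 3.32% and 3.27% in WT and 3.60% and 3.71% in DKO.

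**Figure D5:**
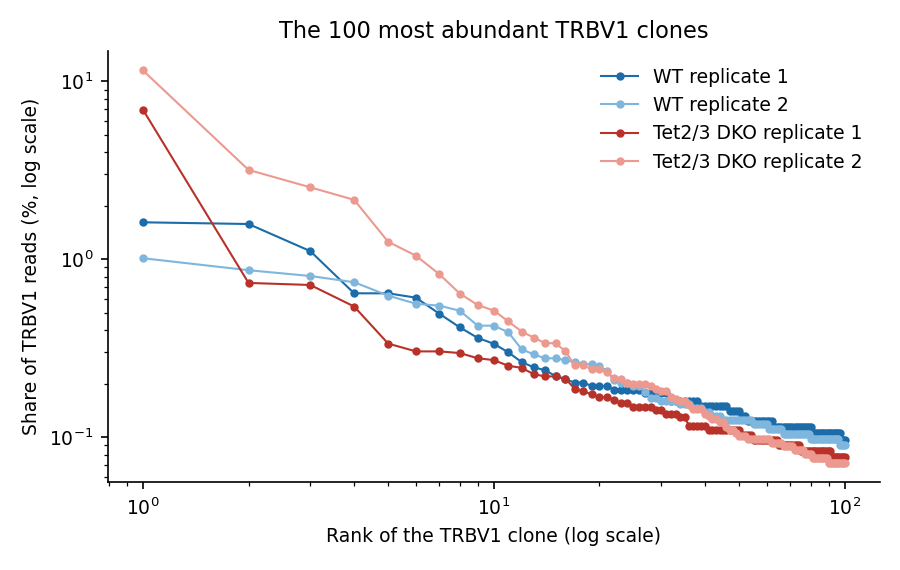
Share of TRBV1 reads held by each of the 100 most abundant TRBV1 clones of a library against its rank, both on log scales. Tet2/3 DKO replicate 2 starts at 11.5% and lies above the other libraries over the first 10 ranks, and Tet2/3 DKO replicate 1 falls from 6.94% to 0.737% between its first 2 ranks.

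The most abundant TRBV1 clone of each library, and every TRBV1 clone of at least 0.1% of TCRβ reads, are shown by their CDR3 because they are the largest members. Bases assigned to neither V nor J are in capitals.
WT replicate 1, TRBJ1-5: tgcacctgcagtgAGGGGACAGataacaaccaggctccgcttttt
WT replicate 2, TRBJ2-4: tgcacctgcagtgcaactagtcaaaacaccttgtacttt
Tet2/3 DKO replicate 1, TRBJ2-3: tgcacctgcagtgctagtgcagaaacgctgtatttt
Tet2/3 DKO replicate 2, TRBJ2-2: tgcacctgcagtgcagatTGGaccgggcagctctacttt
Tet2/3 DKO replicate 2, TRBJ1-1: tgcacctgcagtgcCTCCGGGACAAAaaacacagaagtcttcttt
Tet2/3 DKO replicate 2, TRBJ2-2, smaller: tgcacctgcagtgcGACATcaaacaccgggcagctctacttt
The WT clones were small. That of WT replicate 1 had 183 reads, 0.0501% of the library, and that of WT replicate 2, whose CDR3 reads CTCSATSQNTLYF, had 146 reads, 0.0322%. In Tet2/3 DKO replicate 1 the TRBJ2-3 clone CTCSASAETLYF had 1074 reads, 0.262% of all TCRβ reads (95% Wilson interval 0.247 to 0.278%), and was the most abundant TCRβ clone of that library. In it 3 V bases were lost and the alignment left no base between V and J, with palindromic bases counted as part of their segment. The same nucleotide CDR3 with the same segments was present in WT replicate 2 with 18 reads and had 0 reads in WT replicate 1 and Tet2/3 DKO replicate 2, which allows a share of up to 0.000821% and 0.000527% of their TCRβ reads (3 reads). In Tet2/3 DKO replicate 2 the larger TRBJ2-2 clone, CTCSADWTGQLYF, had 2730 reads, 0.479% (0.462 to 0.497%), and ranked 5th among all TCRβ clones. Its CDR3 had 0 reads in the other 3 libraries, which allows up to 0.000821%, 0.000661% and 0.000733% of the reads of WT replicate 1, WT replicate 2 and Tet2/3 DKO replicate 1. The TRBJ1-1 clone had 753 reads (0.132%), with 4 reads of the same CDR3 in WT replicate 2. The smaller TRBJ2-2 clone had 601 reads (0.105%). The 2 WT libraries held 0 TRBV1 clones of 0.1% or more, among 13 and 8 such clones of any segment, and the DKO libraries held 1 of 3 and 3 of 31.

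A clonotype is here a TRBV1 in-frame clone with a given J segment and CDR3 protein sequence. The 4 libraries held 9540 TRBV1 clonotypes together, of which 8445 (88.5%) were in 1 library, 797 in 2, 216 in 3 and 82 (0.86%) in all 4. Of the clonotypes of a library, 24.9% and 22.8% in WT and 23.2% and 22.8% in DKO were present in at least 1 other library. For the other V segments the shares were 27.0%, 25.2%, 25.8% and 25.3%, and TRBV1 minus the others came to -2.11, -2.45, -2.62 and -2.52 points (exact sign-flip p = 0.125, the smallest possible, 0.167 adjusted over 4 tests). Libraries of the same genotype shared 270 (WT) and 381 (DKO) TRBV1 clonotypes, and pairs of a WT and a DKO library shared 291 to 348. Divided by the product of the 2 libraries' clonotype numbers, the shared number was 4.29e-05 on average across genotypes and 4.28e-05 within them.

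The 82 clonotypes found in all 4 libraries took 6.94% and 6.78% of in-frame TRBV1 reads in WT and 6.89% and 5.28% in DKO. They were shorter than the rest of the TRBV1 clones, with 12.9 residues on average in every library against 13.85 to 13.99. They had 4.53 to 4.71 bases between V and J, against 8.33 to 8.44. With palindromic bases counted as V or J, no base lay between in 10.4 to 12.1% of their clones against 2.48 to 2.90%. TRBJ2-7 was the partner of 22 of them, TRBJ2-4 of 19, TRBJ2-5 of 11 and TRBJ1-1 of 10.

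The 5 shared clonotypes with the highest lowest share over the 4 libraries are shown by the nucleotide form with the most reads, with bases between V and J in capitals.
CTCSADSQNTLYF, TRBJ2-4: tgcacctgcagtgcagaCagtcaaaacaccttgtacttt
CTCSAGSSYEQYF, TRBJ2-7: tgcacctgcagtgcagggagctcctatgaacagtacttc
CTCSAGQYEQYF, TRBJ2-7: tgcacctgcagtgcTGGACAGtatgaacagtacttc
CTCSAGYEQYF, TRBJ2-7: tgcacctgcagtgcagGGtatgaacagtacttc
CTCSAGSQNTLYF, TRBJ2-4: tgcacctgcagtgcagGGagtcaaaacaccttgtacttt
The most even of them, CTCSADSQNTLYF, had 45 and 37 reads in WT and 40 and 69 in DKO, which is 0.0123%, 0.00815%, 0.00977% and 0.0121% of TCRβ reads, so the genotypes overlapped. It was encoded by 8 different nucleotide sequences over the libraries, 2 of them present in all 4, and the form shown made up 57.1% of its reads. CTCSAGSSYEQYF had 21 and 30 reads in WT and 39 and 80 in DKO, in 7 nucleotide forms. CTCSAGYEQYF had 21 and 18 reads in WT and 33 and 71 in DKO, in 5 forms. The other 2, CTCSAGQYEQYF and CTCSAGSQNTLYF, came in 7 and 9 forms and had 14 to 45 reads in a library. As shares of TCRβ reads, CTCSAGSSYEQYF stood at 0.00575% and 0.00661% in WT and at 0.00953% and 0.0140% in DKO. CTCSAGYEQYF stood at 0.00575% and 0.00396% in WT and at 0.00806% and 0.0125% in DKO. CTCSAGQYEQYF stood at 0.00520% and 0.00440% in WT and at 0.00537% and 0.00737% in DKO. In these the genotypes did not overlap, while in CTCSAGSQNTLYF they did. For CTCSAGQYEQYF the nearest values were 19 reads in WT replicate 1 and 22 in Tet2/3 DKO replicate 1. TRBV1 as a whole also stood higher in both DKO libraries. How many of all the clonotypes found in all 4 libraries did so was not counted. At these read numbers the differences between libraries were not tested.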

How the data were processed

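Total RNA of the sorted cells was converted to TCR libraries with a 5′ RACE kit and sequenced on a MiSeq; the submitters' processing notes name bcl2fastq 2.20.0, fastp 0.21.0 and build mm10, and the labels and methods name MiXCR. The authors deposited, for each clone, a count of reads and the fraction of the library's reads. The deposited fraction equalled the count divided by the library total. There were no molecular identifiers, and the TCRα tables were not used. The members and lists were chosen with earlier results of these data known. Groups came from the sample titles. Shares, junction features and shared clonotypes were computed from the counts in Python 3.11.15. V segments and V-J pairs with at least 10 reads were fitted with edgeR 4.0.16 (R 4.3.3), scaled by all TCRβ reads and called at an adjusted p under 0.05 (Benjamini-Hochberg); DESeq2 1.42.0 was an alternative. The fits were tested on simulated data with changes far larger than that of TRBV1, so that test does not bear on a change of its size. V and J ends were those of the deposited alignment, in which an added base that happens to match the germline counts as germline. Palindromic bases count there with the segment they adjoin. TRBV1 clones without a CDR3 (9, 13, 7 and 2) stayed in the shares and were left out of junction features. All TRBV1 clones had a single V hit. Named were TRBV1, its 3 largest and 2 smallest J partners, the clones and shared clonotypes described, and the segments nearest in level and J usage. Further J segments were named for high read shares or for differences of the same sign in every library. Further V segments were named as the extremes of an order. The libraries were described by the study as distinct biological replicates.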

Additional observations from a re-analysis of the deposited data

How the results depend on the processing

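Over 13 results, 125 of 132 alternatives kept the direction and the side of the threshold, or the count. They were a minimum of 2 reads, merged clones, clones with 1 V hit, counting by clones or by reads, other normalizations and filters, drawing down to the smallest library, in-frame clones, removal of large clones (in the edgeR fits added after seeing the data, as was removal of the largest TRBV1 clone and the fits on in-frame clones) and leaving out each library. Some of these could hardly move a result, so the tally says little of stability there. All TRBV1 clones had a single V hit, and merging clones leaves shares of reads as they were. In the fit over V segments, leaving out a library gave TRBV1 log2 fold changes of 0.27 to 0.41, and TRBV1 passed the threshold without Tet2/3 DKO replicate 1 (0.41). Fits that leave 1 library in a group assume that it varies like the others. For V-J pairs, 0 to 2 TRBV1 pairs were called when a library was left out, and 1 (TRBJ1-1, edgeR adjusted p = 0.0206) without the 10 most abundant clones of each library. Leaving out a library moved the TRBJ2 share difference between -2.95 and 0.61 points (the latter without WT replicate 2) and the in-frame difference between -0.077 (without Tet2/3 DKO replicate 1) and 0.53 points. Without the largest TRBV1 clone of each library the TRBJ2 share difference was -4.50 points, the log2 ratio of the 10 most abundant clones 0.61 and that in the germline CDR3 start -0.057 points. With all clones, weighted by reads, the TRBJ2 share of TRBV1 minus other segments was 0.16 points. The causes were not tested beyond what each alternative removes.

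The replicate numbers are shared by the genotypes, but nothing says that they pair the mice. The deviations of same-numbered libraries correlated at 0.35 over 17 V segments and at -0.06 over 285 V-J pairs, which are not independent. With the replicate block the TRBV1 log2 fold change was 0.34 (edgeR adjusted p = 0.36), and 0 TRBV1 pairs were called. With 2 libraries a group the permutation tests cannot pass the threshold, so their p values say nothing of stability. Depth limits the shared clonotypes, since many clones have a single read.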
